A study of Mus musculus with 7 samples.

Results

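The genes described here encode the adhesion receptors that blood leukocytes use to roll on, stick to and cross vessel walls, and that hold stem cells in the bone marrow. They are 9 genes chosen by name: Itgb2, Itgam, Itgal, Itgax, Itgb1, Itga4, Selplg, Cd44 and Icam1. All 9 were found among the 28987 genes listed, and all 9 passed the filter on low values in every fit. RNA was measured in 7 libraries from the bone marrow of C57BL/6 mice. Hematopoietic stem and progenitor cells (HSC/P) were enriched for CD117, the receptor encoded by Kit, and then sorted for the mutant clone. The HSC/P libraries were 2 of RUNX1mut/HMGA2-OE, which carry a RUNX1 mutation and overexpress HMGA2, and 1 of HMGA2-OE, which overexpresses HMGA2 alone. Sorted Ly6G+ myeloid cells gave 1 library each of RUNX1mut/HMGA2-OE, RUNX1mut, HMGA2-OE and Control. Every HSC/P library thus carried HMGA2-OE, and no HSC/P library without it was compared. The labels give no age, no promoter or Cre behind HMGA2-OE or RUNX1mut, no nature of the RUNX1 mutation, and no link between the animals behind the HSC/P and the Ly6G+ libraries. In bulk libraries such as these, fewer cells of a type and less RNA per cell cannot be told apart.

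Integrins are pairs of an alpha and a beta chain. The beta 2 chain (Itgb2, CD18) is shared by the leukocyte integrins Mac-1 (with Itgam), LFA-1 (with Itgal) and p150,95 (with Itgax), while the beta 1 chain (Itgb1) pairs with Itga4 in VLA-4, which binds VCAM1 and fibronectin and retains stem and progenitor cells in the marrow. Selectins start the rolling of leukocytes by binding sugar chains carried on PSGL-1 (Selplg) and on forms of CD44, which is also a receptor for hyaluronan, and ICAM1 on the opposite cell is the ligand that LFA-1 and Mac-1 grip. Neutrophil maturation in the marrow is accompanied by gain of Mac-1 and by loss of VLA-4.

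The upstream sequences of 3 members are shown because Itgam and Icam1 had the widest differences between the genotypes in HSC/P and Itga4 had the widest in Ly6G+ cells. Each is the 250 bases before the RefSeq start of the gene (build GRCm38.p6), 5′ to 3′ on the gene's own strand. Capitals mark matches to 2 cores searched on both strands, TGTGGT (or ACCACA), the core bound by RUNX proteins, and GAGGAA (or TTCCTC), a core bound by PU.1-type ETS factors. Windows of this length held the first in 14.0% and the second in 23.3% of 32851 RefSeq promoters.
Itgam, chr7:128062390-128062639, plus strand: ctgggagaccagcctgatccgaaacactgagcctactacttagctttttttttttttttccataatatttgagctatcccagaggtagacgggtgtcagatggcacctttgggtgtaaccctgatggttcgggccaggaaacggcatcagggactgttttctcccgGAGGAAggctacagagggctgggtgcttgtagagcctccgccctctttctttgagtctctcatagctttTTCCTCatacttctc
Icam1, chr9:21015690-21015939, plus strand: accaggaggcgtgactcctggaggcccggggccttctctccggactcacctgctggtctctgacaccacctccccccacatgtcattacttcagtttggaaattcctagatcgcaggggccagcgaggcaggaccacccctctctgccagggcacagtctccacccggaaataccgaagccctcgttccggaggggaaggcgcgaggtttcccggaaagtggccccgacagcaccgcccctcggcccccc
Itga4, chr2:79255176-79255425, plus strand: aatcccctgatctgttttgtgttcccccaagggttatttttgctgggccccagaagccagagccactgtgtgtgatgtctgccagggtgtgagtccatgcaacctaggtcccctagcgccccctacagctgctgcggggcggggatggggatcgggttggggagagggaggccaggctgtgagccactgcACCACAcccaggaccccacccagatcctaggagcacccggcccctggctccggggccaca
The Itgam window held the PU.1-type core at 84 and at 15 bases before the start, and the RUNX core nowhere. The Itga4 window held the RUNX core at 60 bases before the start, and the Icam1 window held neither. Of the 9 genes, 6 had a RefSeq entry, and in the 3 whose windows are not printed, Cd44 held 2 matches to the PU.1-type core, Itgb1 held 1 and Itgax held none. A match describes the letters of the window alone.

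Levels are given in TPM, a length-normalized share of a library's transcripts that the authors computed and that can be compared between genes. Read depth is not known from TPM. The listed genes summed to 922874, 935711 and 896820 TPM in the HSC/P libraries and to between 984650 and 993009 TPM in the Ly6G+ libraries. Among HSC/P, Runx1 stood at 219 and 225 TPM with RUNX1mut/HMGA2-OE and at 18.9 TPM with HMGA2-OE. Among Ly6G+ cells it stood at 21.2 and 11.6 TPM with the mutation and at 3.36 and 3.85 TPM without it. Hmga2 was at 176, 138 and 147 TPM in HSC/P, and in Ly6G+ cells at 12.1 TPM with RUNX1mut/HMGA2-OE and 3.72 TPM with HMGA2-OE, against 1.36 TPM with RUNX1mut and 1.45 TPM in Control. Kit marked the HSC/P libraries (61.8 to 155 TPM, against 3.43 to 5.20 TPM in Ly6G+ libraries), and all 14 mature neutrophil markers reached 1 TPM in every library of both cell types. The Ly6G+ RUNX1mut/HMGA2-OE library stood apart, since S100a8 took 3.11% of its TPM and 40.2%, 55.0% and 44.3% in RUNX1mut, HMGA2-OE and Control Ly6G+ cells. Tests were therefore run on TPM scaled between libraries.

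The question of cell type, progenitor against sorted granulocyte, gave the widest differences among these genes. In the 5 libraries that carried HMGA2-OE, all 4 genes of the beta 2 family, Selplg and Cd44 fell in HSC/P relative to Ly6G+ cells, Itga4 and Itgb1 rose, and Icam1 did not pass the test. Thus 6 of 9 members were lower and 2 of 9 higher, beside 32.5% and 32.2% (64.7% in all) of the 12686 genes tested (limma on log2 of scaled TPM with 1 added, two-sided, Benjamini-Hochberg adjusted p under 0.05). The members' median difference was -3.60 on the log2 scale, while the median of all tested genes was 0.10. Log2 differences below are HSC/P minus Ly6G+, from a fit with the RUNX1 mutation as a second term, and carry its standard error.

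Itgb2 (ENSMUSG00000000290, mm10 chr10:77530252-77565708, plus strand) encodes the shared beta 2 chain. Its level was 78.9 and 83.0 TPM in RUNX1mut/HMGA2-OE HSC/P and 101 TPM in the HMGA2-OE HSC/P library, against 885, 587, 488 and 617 TPM in RUNX1mut/HMGA2-OE, RUNX1mut, HMGA2-OE and Control Ly6G+ cells. Every HSC/P value lay far below every Ly6G+ value. In Ly6G+ libraries Itgb2 ranked between 87 and 107 among all listed genes by TPM, and in HSC/P libraries between 1201 and 1696. The scaled difference was -4.80 ± 0.13 (limma adjusted p = 6.18e-04).

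Itgam (ENSMUSG00000030786, mm10 chr7:128062640-128118491, plus strand), the Mac-1 alpha chain also known as CD11b, had the widest cell type difference of the 9 genes. It stood at 27.5 and 21.7 TPM in RUNX1mut/HMGA2-OE HSC/P and 80.3 TPM in the HMGA2-OE HSC/P library, against 592, 337, 306 and 389 TPM in RUNX1mut/HMGA2-OE, RUNX1mut, HMGA2-OE and Control Ly6G+ cells. The 3 HSC/P libraries themselves split by genotype, with the HMGA2-OE library highest. The fitted difference was -5.27 ± 0.39 (limma adjusted p = 0.00112).

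Itgal (ENSMUSG00000030830, mm10 chr7:127296260-127335138, plus strand) encodes the LFA-1 alpha chain, CD11a. It had 35.5 and 23.9 TPM in RUNX1mut/HMGA2-OE HSC/P and 16.5 TPM in the HMGA2-OE HSC/P library, against 161, 87.2, 64.1 and 77.9 TPM in RUNX1mut/HMGA2-OE, RUNX1mut, HMGA2-OE and Control Ly6G+ cells. The cell types did not overlap, and within HSC/P the order of the genotypes was opposite to that of Itgam. The difference was -4.03 ± 0.25 (limma adjusted p = 8.63e-04).

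Itgax (ENSMUSG00000030789, mm10 chr7:128129547-128150657, plus strand), whose product CD11c is best known on dendritic cells, was the lowest of the 9 genes in HSC/P. Its values were 2.0 and 1.32 TPM in RUNX1mut/HMGA2-OE HSC/P and 1.01 TPM in the HMGA2-OE HSC/P library, against 3.08, 2.26, 1.95 and 2.02 TPM in RUNX1mut/HMGA2-OE, RUNX1mut, HMGA2-OE and Control Ly6G+ cells. As deposited, the highest HSC/P value lay above the lowest Ly6G+ value, and after scaling the cell types did not overlap. The difference of -1.86 ± 0.27 passed (limma adjusted p = 0.00529), but without scaling it was -0.60 and did not pass. Itgam, Itgax and the fourth beta 2 partner Itgad share sequence and lie near each other, and how reads were divided among them was not examined.

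Itgb1 (ENSMUSG00000025809, mm10 chr8:128685654-128733200, plus strand) and Itga4 (ENSMUSG00000027009, mm10 chr2:79255426-79333123, plus strand) encode the chains of VLA-4 and went the other way. Itgb1 had 115 and 148 TPM in RUNX1mut/HMGA2-OE HSC/P and 104 TPM in the HMGA2-OE HSC/P library, against 33.6, 18.7, 11.7 and 9.35 TPM in RUNX1mut/HMGA2-OE, RUNX1mut, HMGA2-OE and Control Ly6G+ cells. Itga4 had 61.6 and 46.4 TPM in RUNX1mut/HMGA2-OE HSC/P and 66.5 TPM in the HMGA2-OE HSC/P library, against 12.2, 6.94, 2.71 and 2.55 TPM in the Ly6G+ libraries in that same order. Both genes were higher in each HSC/P library than in any Ly6G+ library, and in Ly6G+ cells both were highest with RUNX1mut/HMGA2-OE and lowest in Control. The differences were 0.58 ± 0.16 for Itgb1 (limma adjusted p = 0.0328) and 1.25 ± 0.36 for Itga4 (limma adjusted p = 0.0384). These calls were narrow. Neither gene passed without replicate 1 of RUNX1mut/HMGA2-OE HSC/P, where the Itgb1 difference was 0.64. Neither passed in a fit to 6 libraries that left out Ly6G+ RUNX1mut/HMGA2-OE. A fit to all 7 libraries also lost 2 of the members' cell type calls. Without replicate 2, Itgb1 was at 0.49 and did not pass, while Itga4 was at 1.42.

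Selplg (ENSMUSG00000048163, mm10 chr5:113818536-113832644, minus strand) encodes PSGL-1, the main selectin ligand of leukocytes. It stood at 74.5 and 51.0 TPM in RUNX1mut/HMGA2-OE HSC/P and 59.3 TPM in the HMGA2-OE HSC/P library, against 461, 304, 279 and 304 TPM in RUNX1mut/HMGA2-OE, RUNX1mut, HMGA2-OE and Control Ly6G+ cells. Cd44 (ENSMUSG00000005087, mm10 chr2:102811141-102901665, minus strand) stood at 51.5 and 51.9 TPM in RUNX1mut/HMGA2-OE HSC/P and 51.4 TPM in the HMGA2-OE HSC/P library, against 240.4, 141, 115 and 126 TPM in those Ly6G+ libraries. Both genes were lower in each HSC/P library than in any Ly6G+ library, and Cd44 was nearly equal across the 3 HSC/P libraries. The differences were -4.46 ± 0.24 for Selplg (limma adjusted p = 7.08e-04) and -3.60 ± 0.12 for Cd44 (limma adjusted p = 6.18e-04).

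Icam1 (ENSMUSG00000037405, mm10 chr9:21015985-21028817, plus strand), the ligand of the beta 2 integrins, was the only one of the 9 genes whose scaled values overlapped between the cell types. It had 17.3 and 14.4 TPM in RUNX1mut/HMGA2-OE HSC/P and 5.42 TPM in the HMGA2-OE HSC/P library, against 4.27, 4.10, 1.40 and 1.88 TPM in RUNX1mut/HMGA2-OE, RUNX1mut, HMGA2-OE and Control Ly6G+ cells. As deposited, all HSC/P values lay above all Ly6G+ values. The scaled difference was 0.05 ± 0.27 (95% interval -0.70 to 0.79, limma adjusted p = 0.892), while without scaling it was 1.56 and passed. Among the scaled values of all 7 libraries, those of the cell types did not overlap for 6 members that were lower and 2 that were higher in HSC/P, beside 35.4% and 35.1% of 12881 genes.

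**Figure D1:**
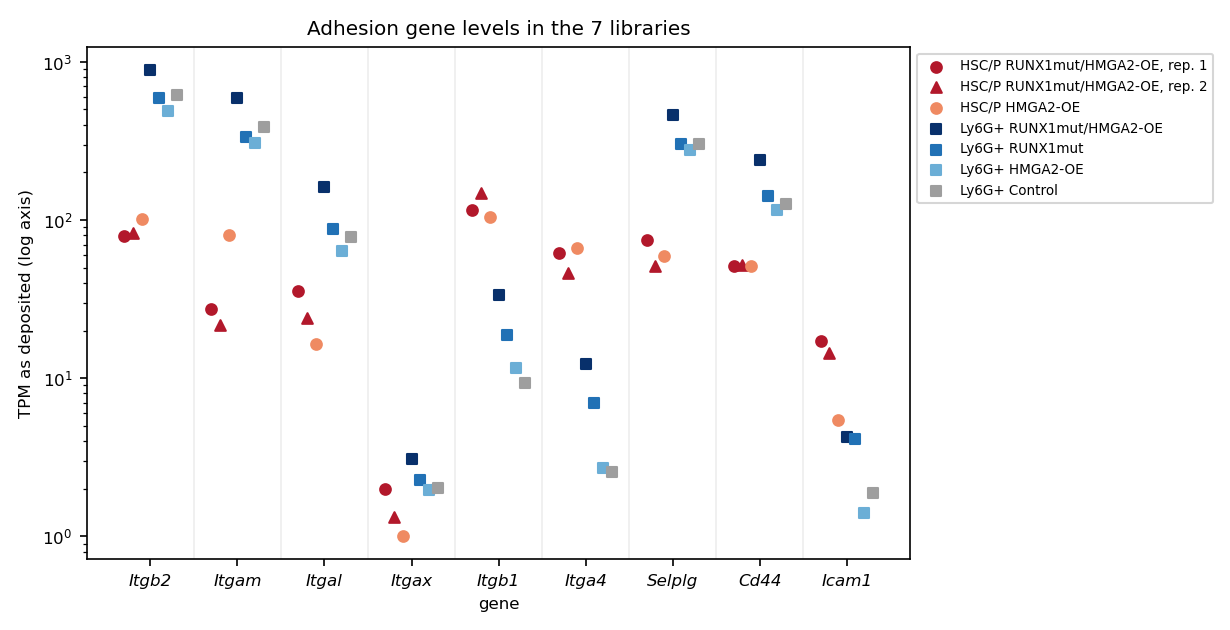
Levels of the 9 adhesion genes in the 7 libraries, with TPM as deposited on a log axis and 1 point for each library (HSC/P in red and orange, Ly6G+ in blue and grey). Itgb2, Itgam, Itgal, Selplg and Cd44 sit higher in Ly6G+ cells, as with Itgb2 at 78.9 to 101 TPM in HSC/P and 488 to 885 TPM in Ly6G+ cells. Itgb1, Itga4 and, on this unscaled axis, Icam1 sit higher in HSC/P, while Itgax overlaps between the cell types.

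The size of each cell type difference depended on the scaling between libraries. Without scaling, 64.4% of genes passed as higher in HSC/P and 8.88% as lower, the median of all genes lay at 1.46 in HSC/P minus Ly6G+, and the members' differences were -3.42 for Itgam, -2.93 for Itgb2, -2.60 for Selplg, -2.20 for Itgal and -1.75 for Cd44, all of which still passed. Itga4 at 2.96 and Itgb1 at 2.41 also passed. Thus no called member changed sign, and relative to the median of all genes each of these differences kept its side.

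Ratios within a library do not depend on the scaling between libraries, and these were chosen after values were seen. The level of Itgb2 relative to Itgb1 was 0.684 and 0.560 in RUNX1mut/HMGA2-OE HSC/P and 0.970 in the HMGA2-OE HSC/P library, against 26.3, 31.4, 41.9 and 66.0 in RUNX1mut/HMGA2-OE, RUNX1mut, HMGA2-OE and Control Ly6G+ cells. The beta chains were therefore of similar level in HSC/P, whereas beta 2 exceeded beta 1 by more than 20 times in each Ly6G+ library. The ratio was lower with the RUNX1 mutation in all 3 pairings by cell type and HMGA2-OE state. The summed level of the alpha chains that pair with beta 2 was 0.823 and 0.576 of Itgb2 in RUNX1mut/HMGA2-OE HSC/P and 0.970 in the HMGA2-OE HSC/P library, against 0.855, 0.726, 0.763 and 0.760 in the Ly6G+ libraries in the order above.

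The mix of the alpha chains set the HSC/P genotypes apart. Itgam made up 42.3% and 45.3% of the summed TPM of Itgam, Itgal, Itgax and Itgad in RUNX1mut/HMGA2-OE HSC/P, against 81.9% in HMGA2-OE HSC/P. Itgal made up 54.6% and 49.9% in RUNX1mut/HMGA2-OE HSC/P, against 16.8% in HMGA2-OE HSC/P. In HMGA2-OE HSC/P the mix was thus close to that of Ly6G+ cells, where Itgam made up 78.3%, 79.0%, 82.2% and 83.0% with RUNX1mut/HMGA2-OE, RUNX1mut, HMGA2-OE and Control. The Ly6G+ libraries with the RUNX1 mutation also had the lower Itgam shares, by a few percentage points. Itgad was listed at 0 in replicate 1 of RUNX1mut/HMGA2-OE HSC/P and in all 4 Ly6G+ libraries, at 2.05% of the sum in replicate 2 and at 0.202% in HMGA2-OE HSC/P.

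**Figure D2:**
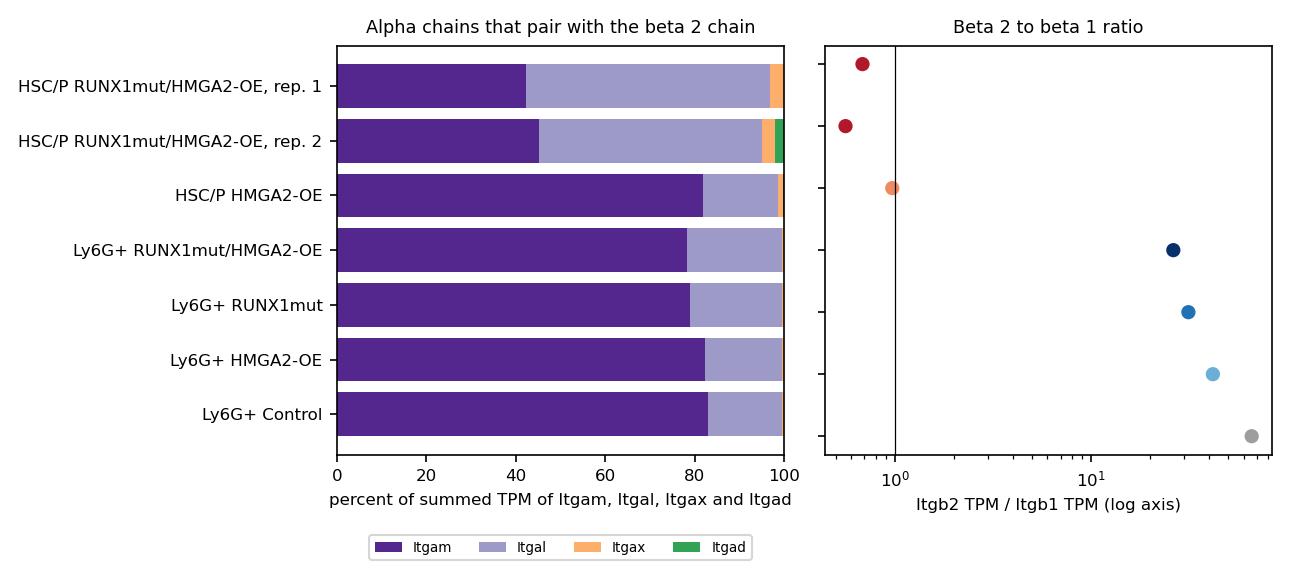
Left, percent of the summed TPM of the alpha chains that pair with beta 2 held by Itgam, Itgal, Itgax and Itgad in each library; right, the ratio of Itgb2 to Itgb1 TPM on a log axis, with a line at 1. RUNX1mut/HMGA2-OE HSC/P have Itgam at 42.3% and 45.3%, against 81.9% in HMGA2-OE HSC/P, and the ratio of the beta chains is below 1 in all HSC/P and above 26 in all Ly6G+ libraries.

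The effect of the RUNX1 mutation in HSC/P that also carried HMGA2-OE was tested on 3 libraries, with 1 residual degree of freedom, over 12226 genes. Limma called 0 genes in either direction (0%), and its smallest adjusted p was 0.112. At an unadjusted p under 0.05 there were 1908 genes (15.6%), with 8.35% higher and 7.26% lower. Among the members 1 was higher and 2 were lower at that level, so none of the values that follow is a call. The replicates were within 2-fold of each other for 95.3% of genes.

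Itgam had scaled values of 26.9 and 20.5 in RUNX1mut/HMGA2-OE HSC/P, against 86.8 in HMGA2-OE HSC/P. Its log2 difference was -1.84 ± 0.22 (95% interval -2.48 to -1.20, limma adjusted p = 0.139), and it was the only member at least 2-fold lower in both replicates, beside 2.31% of genes. Its partner Itgb2 had scaled values of 77.2 and 78.5 in RUNX1mut/HMGA2-OE HSC/P, against 109 in HMGA2-OE HSC/P, a difference of -0.48 ± 0.12 (limma adjusted p = 0.238). For both genes each replicate lay below the single HMGA2-OE library, by much more than the replicates differed from each other.

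Icam1 had scaled values of 16.9 and 13.6 in RUNX1mut/HMGA2-OE HSC/P, against 5.85 in HMGA2-OE HSC/P. The difference was 1.24 ± 0.23 (95% interval 0.56 to 1.92, limma adjusted p = 0.195), and Icam1 was the only member at least 2-fold higher in both replicates, beside 4.09% of genes. Itgal, the alpha chain of LFA-1, was at 34.7 and 22.6 against 17.8 scaled TPM in the same order of genotypes, with a difference of 0.63 ± 0.31 (limma adjusted p = 0.427). Its replicates lay farther from each other than the lower one lay from the HMGA2-OE library.

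The remaining members differed less between the HSC/P genotypes. Counted over all 9, both replicates lay above the HMGA2-OE library for 4 members, beside 37.8% of genes, and below it for 4, beside 41%, with Selplg between. Itga4 was at 60.2 and 43.9 scaled TPM in RUNX1mut/HMGA2-OE HSC/P against 71.9 in HMGA2-OE HSC/P. Its difference was -0.48 ± 0.24, with a 95% interval that included 0 (-1.17 to 0.22). Itgax (0.31 ± 0.38), Itgb1 (0.16 ± 0.18), Selplg (-0.11 ± 0.30) and Cd44 (-0.16 ± 0.13) also had intervals that included 0. The interval for Cd44, from -0.55 to 0.23, was the narrowest of these. Selplg and Cd44 turned positive, at 0.06 and 0.01, without scaling, under which the median of all genes was 0.14, and Selplg was 0.20 without replicate 2.

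Markers of mature and of immature cells also differed between these HSC/P genotypes. Ly6g, the neutrophil surface marker, was at 7.28 and 16.8 TPM in RUNX1mut/HMGA2-OE HSC/P, against 136 TPM in HMGA2-OE HSC/P. The 14 mature neutrophil markers, less S100a8 and S100a9, summed to 1934 and 3251 TPM in RUNX1mut/HMGA2-OE HSC/P, against 10123 TPM in HMGA2-OE HSC/P. In the fit 12 of the 14 were lower and 2 higher with RUNX1mut/HMGA2-OE, and none passed. The higher ones were the receptors Cxcr2 (0.58 ± 0.20) and Csf3r (0.47 ± 0.17). The 10 stem and progenitor markers summed to 1148 and 1117 TPM with RUNX1mut/HMGA2-OE against 408 TPM with HMGA2-OE, and all 10 reached 1 TPM in each library. The 7 granulocyte precursor markers, also of immature cells, summed to 9314 and 4796 TPM with RUNX1mut/HMGA2-OE against 7884 TPM with HMGA2-OE. In the fit 0 of these 7 were higher and 7 lower (median -0.55), and none passed. The 11 monocyte and macrophage markers summed to 534 and 348 TPM against 972 TPM in the same order, and the 9 dendritic cell markers to 396 and 394 TPM against 192 TPM. The 8 erythroid markers summed to 879 and 1545 TPM against 1928 TPM in the same order. The 8 megakaryocyte and platelet markers summed to 882 and 2314 TPM in RUNX1mut/HMGA2-OE HSC/P against 448 TPM in HMGA2-OE HSC/P. The part of these markers in the Itgam, Icam1 and Itgal values was not tested. The 8 stromal and endothelial markers summed to 26.1 and 75.4 TPM in RUNX1mut/HMGA2-OE HSC/P, of which 3 and 3 reached 1 TPM, against 5.25 TPM in HMGA2-OE HSC/P, of which 1 did. The 3 that could be tested, Kdr (3.91 ± 1.08), Tek (2.11 ± 0.54) and Emcn (1.45 ± 0.39), did not pass. Cdh5, the endothelial cadherin, was at 0.107 and 0.0891 TPM with RUNX1mut/HMGA2-OE, against 0.141 TPM with HMGA2-OE, and Pdgfra was at 0 in all 3 libraries. The part of these markers was likewise not tested.

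**Figure D3:**
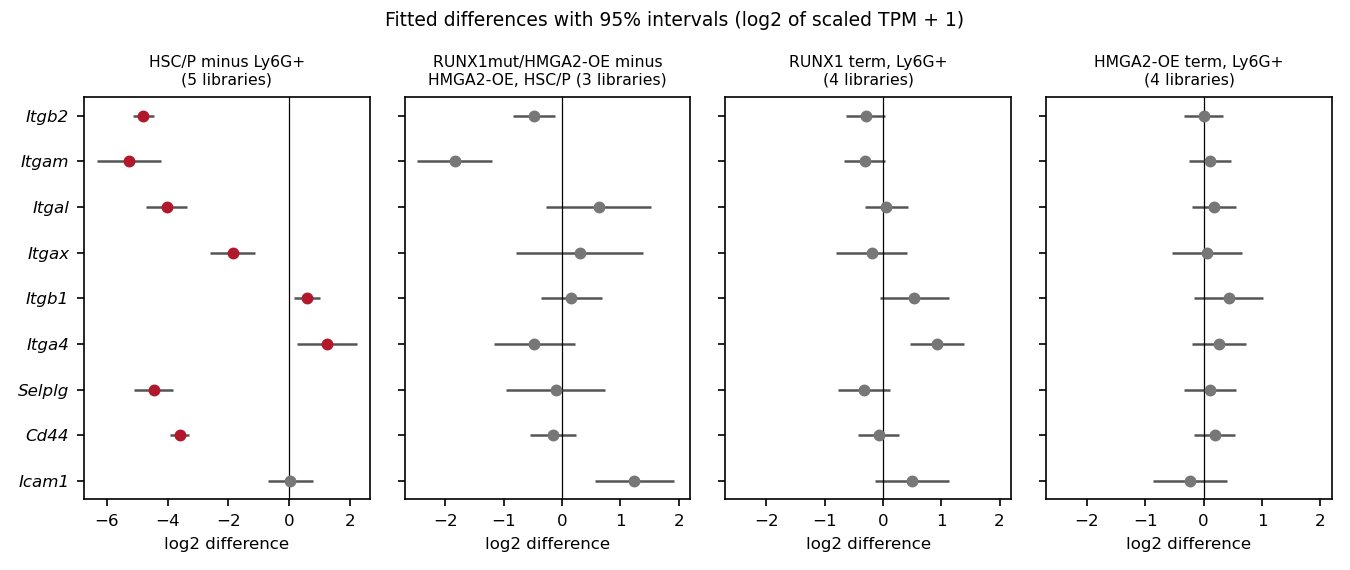
Fitted log2 differences of the 9 genes with 95% intervals, on the log2 of scaled TPM with 1 added, for HSC/P minus Ly6G+, for RUNX1mut/HMGA2-OE minus HMGA2-OE in HSC/P, and for the RUNX1 and HMGA2-OE terms in Ly6G+ cells, with red points for adjusted p under 0.05. The red points are confined to the cell type panel, where Itgam is at -5.27, and in the HSC/P panel Itgam lies at -1.84 and Icam1 at 1.24.

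In Ly6G+ cells the RUNX1 mutation was tested as a term of an additive fit to the 4 libraries, with 1 residual degree of freedom, over 9820 genes. Limma called 0 genes in either direction (0%), its smallest adjusted p was 0.331, and 1407 genes (14.3%) had an unadjusted p under 0.05. Of the members only Itga4 reached that level, beside 7.71% of genes that were higher, and no member did so as lower, beside 6.62%. Scaled values of the 2 libraries with the mutation lay above both others for Itga4, Itgb1 and Icam1, beside 26.1% of genes, and below both for Itgb2, Itgam, Itgax and Selplg, beside 24.5%.

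Itga4 was at 7.76 and 6.81 scaled TPM in RUNX1mut/HMGA2-OE and RUNX1mut Ly6G+ cells, against 3.93 and 2.83 in HMGA2-OE and Control Ly6G+ cells. The term was 0.93 ± 0.14 (95% interval 0.46 to 1.39, limma adjusted p = 0.331). In single pairs of scaled libraries, which have no replicate and no test, Itga4 differed by 1.03 for RUNX1mut over Control, where 5.36% of genes were at least 2-fold higher, and by 0.83 for RUNX1mut/HMGA2-OE over HMGA2-OE. In a fit to all 7 libraries the term was 0.36, and without Ly6G+ RUNX1mut/HMGA2-OE it was 0.16, so its size differed with the libraries fitted.

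Itgb1, the partner of Itga4, was at 21.3 and 18.3 scaled TPM in RUNX1mut/HMGA2-OE and RUNX1mut Ly6G+ cells, against 16.9 and 10.4 in HMGA2-OE and Control (0.54 ± 0.17, limma adjusted p = 0.357). Icam1 was at 2.71 and 4.02 in the libraries with the mutation, against 2.03 and 2.08 in HMGA2-OE and Control (0.50 ± 0.19, limma adjusted p = 0.380). The ratio of Itga4 to Itgb1, which needs no scaling, was 0.364 and 0.372 with RUNX1mut/HMGA2-OE and RUNX1mut, against 0.233 and 0.273 with HMGA2-OE and Control. It did not overlap between the libraries with and without the mutation in Ly6G+ cells, while in HSC/P it was 0.533 and 0.313 with RUNX1mut/HMGA2-OE against 0.638 with HMGA2-OE.

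Itgam, Itgb2 and Selplg had negative RUNX1 terms in Ly6G+ cells. Itgam was at 375 and 331 scaled TPM in RUNX1mut/HMGA2-OE and RUNX1mut Ly6G+ cells, against 443 and 432 in HMGA2-OE and Control (-0.31 ± 0.11). Itgb2 was at 561 and 576 against 707 and 685 in the same order (-0.29 ± 0.10), and Selplg at 292 and 299 against 404 and 337 (-0.32 ± 0.13). Each of these genes was lower in both libraries with the mutation, none passed, and without scaling the terms were 0.37, 0.39 and 0.36, below the median of all genes at 0.58. The 14 mature neutrophil markers also had mostly negative RUNX1 terms in this fit, 13 of 14 with none passing, with a median of -0.26, and without scaling 12 were positive with a median of 0.43. Their part in the members' values was not tested. Itgax (-0.19 ± 0.18), Cd44 (-0.07 ± 0.10) and Itgal (0.06 ± 0.11) lay closest to 0, and without scaling Itgax and Cd44 were at 0.29 and 0.61.

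Most but not all markers of immature cells were also higher with the mutation in Ly6G+ cells. The sums that follow are of TPM as deposited, without scaling. The 7 granulocyte precursor markers summed to 961 and 815 TPM in RUNX1mut/HMGA2-OE and RUNX1mut Ly6G+ cells, against 402 and 398 TPM in HMGA2-OE and Control. With scaling, 6 of the 7 had positive RUNX1 terms (median 1.24) and none passed. The negative one was Fcnb (-0.53 ± 0.10), at 214 and 197 scaled TPM against 320 and 274 in the same order. Mpo, a primary granule enzyme made in promyelocytes, was at 228 and 235 TPM with the mutation, against 53.2 and 28.4 TPM without it. Its scaled values were 145 and 231, against 77.1 and 31.5. The 10 stem and progenitor markers summed to 65.6 and 48.4 TPM with the mutation (9 and 9 at 1 TPM or more), against 17.8 and 20.7 TPM in HMGA2-OE and Control (4 and 4). With scaling, 7 of the 9 tested had positive RUNX1 terms (median 0.98) and none passed. The 2 negative ones were Kit at -0.60 ± 0.13 and Erg at -0.02 ± 0.20. Among other lineages, in the same order, the 9 dendritic cell markers summed to 183 and 276 TPM against 37.7 and 37.4 TPM. Of these 9 genes, 4 and 4 reached 1 TPM, against 3 and 3. The highest of them were Cd74, at 69.3 and 164 scaled TPM against 32.6 and 25.4, and H2-Ab1, at 32.2 and 92.6 against 11.5 and 10.4. B cell markers summed to 62.1 and 69.6 TPM against 15.2 and 21.2 TPM. Erythroid markers summed to 5815 and 316 TPM against 78.0 and 93.8 TPM. Monocyte and macrophage markers had lower sums with the mutation, 923 and 977 TPM against 1118 and 1520 TPM. With scaling, 7 of the 9 of these tested had positive RUNX1 terms (median 0.94) and none passed. T and NK cell marker sums overlapped, at 20.9 and 9.98 TPM against 13.4 and 6.57 TPM. The part of these markers in the members' values was not tested.

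**Figure D4:**
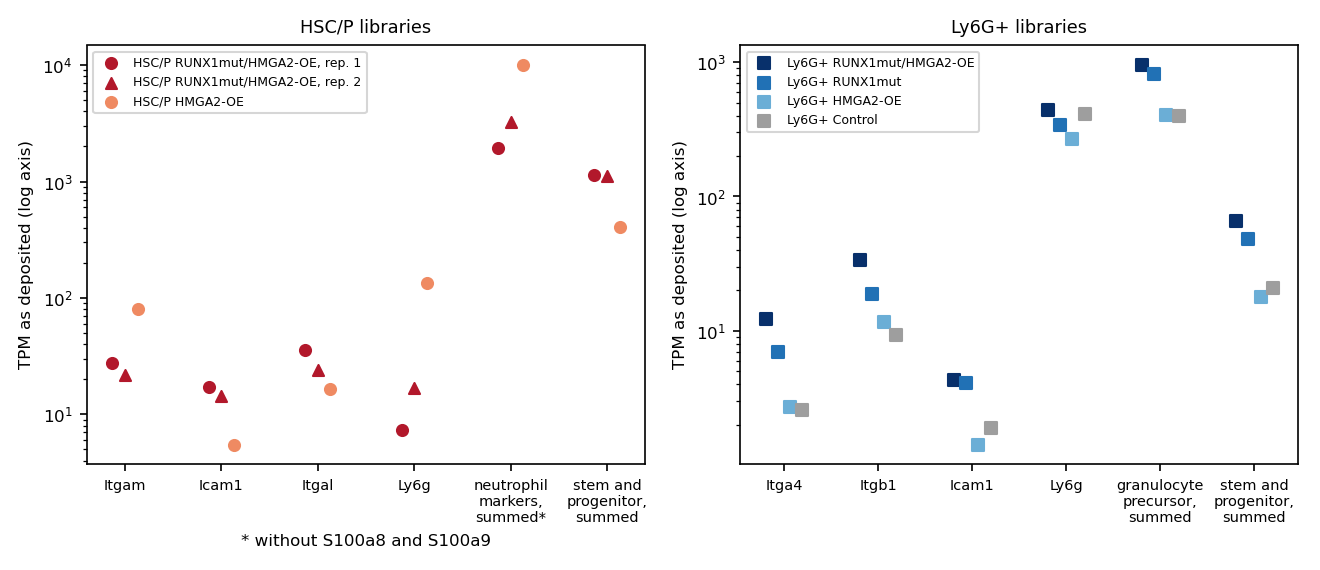
Members beside markers, as deposited TPM on a log axis with 1 point for each library. Left, in HSC/P, Itgam, Ly6g and the summed neutrophil markers are lower in both RUNX1mut/HMGA2-OE replicates and Icam1 and the summed stem and progenitor markers higher; right, in Ly6G+ cells, Itga4 is at 12.2 and 6.94 TPM in the libraries with the mutation, against 2.71 and 2.55 TPM without it, beside the precursor and stem and progenitor marker sums.

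HMGA2 overexpression in Ly6G+ cells, the other term of that fit, left 0 genes called in either direction (0%), with 639 genes (6.51%) at an unadjusted p under 0.05 (3.34% higher and 3.17% lower) and none of the members among them. The smallest adjusted p of a member was 0.741, for Itgb1 at 0.43 ± 0.17. Scaled values of RUNX1mut/HMGA2-OE and HMGA2-OE lay above those of RUNX1mut and Control for Cd44 (152 and 166, against 139 and 140.2) and Itgal (102 and 92.9, against 85.6 and 86.4), beside 16% of genes. The terms were 0.19 ± 0.10 for Cd44 and 0.18 ± 0.11 for Itgal. Itgb2 had a term of 0.00 ± 0.10 and an interval from -0.33 to 0.34, with its sign differing between settings.

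Whether the RUNX1 mutation acted alike in both cell types was tested in the 5 libraries with HMGA2-OE. For the interaction, limma called 0 genes in either direction (0%), and 2297 genes (18.1%) had an unadjusted p under 0.05. Itgam and Itga4 were among the 9.51% that were lower, and no member was among the 8.6% that were higher. The difference of the RUNX1 contrasts, HSC/P minus Ly6G+, was -1.49 ± 0.31 for Itgam (limma adjusted p = 0.207) and -1.31 ± 0.37 for Itga4 (limma adjusted p = 0.257). For the mutation over both cell types limma called 0 genes (0%), and 989 genes (7.8%) had an unadjusted p under 0.05. Those included Itgam at -1.16 ± 0.39 and Itgb2 at -0.44 ± 0.13, beside 3.79% of genes that were lower, and Icam1 at 0.79 ± 0.27, beside 4% that were higher. These comparisons share libraries with the tests within each cell type and are not separate evidence.

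The other genes of the pathway were read from 6 lists. Beside the scaled counts below, 32.5% of the 12686 genes tested passed as lower in HSC/P and 32.2% as higher. Between the cell types, the machinery that switches integrins on and links them to actin was mostly lower in HSC/P than in Ly6G+ cells: of 24 listed genes 22 were tested, 18 fell and 2 rose, with a median of -1.87. Zyx, a protein of focal adhesions, fell by 4.16 on the log2 scale, and Rassf5, an effector of RAP1 that activates LFA-1, fell by 3.56, while Rapgef1, an exchange factor for RAP1, rose by 2.22. Without scaling, where 8.88% of all genes fell and 64.4% rose, 5 of the list fell, 3 rose and the median was -0.05, against 1.46 for all genes. Of 16 kinases and adaptors that act below integrins and PSGL-1, 14 fell and 0 rose (median -2.40), with Fgr, a SRC-family kinase of myeloid cells, at -6.68 and the adaptor Tyrobp at -5.61. Without scaling 6 of these fell and 2 rose (median -0.56).

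Selectin ligands need glycosyltransferases and sulfotransferases, and all 13 of that list were tested between the cell types. Of these 6 fell in HSC/P, including Tpst2 at -2.19 and St3gal6 at -1.82, and 2 rose, C1galt1 at 2.10 and Galnt1 at 1.46. Without scaling 0 fell and 6 rose, and the median changed sign to 0.85, still under the 1.46 of all genes. Selp, which encodes the P-selectin of platelets and endothelium, was at 0.99 and did not pass. Among 20 other integrin chains 13 were tested, and 3 rose and 2 fell, beside 32.2% and 32.5% of all genes. Itga2b, the platelet integrin alpha chain, rose by 3.40 ± 0.54 and Itga5, a fibronectin receptor chain, by 1.56 ± 0.22. Without scaling 9 of these 13 chains rose and 0 fell, beside 64.4% and 8.88% of all genes. Among 20 ligands and counter-receptors 16 were tested, and 6 rose and 6 fell, near the 32.2% and 32.5% of all genes. Cd34 was at 2.88, Icam4 at 2.28, Cd24a at -1.94 and Cd47 at -1.63. Without scaling 9 of the 16 rose and 0 fell, beside 64.4% and 8.88% of all genes, and Cd47 was at 0.24.

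No gene of these lists passed for the RUNX1 mutation or for HMGA2-OE, so the following are values only. Without scaling, Itga2b (3.19), Cd34 (2.44) and Itgb4 (-1.76) passed in Ly6G+ cells for the RUNX1 term, as did St3gal6 (-3.73) for the HMGA2-OE term. In HSC/P, Itga2b had 313 and 640 TPM with RUNX1mut/HMGA2-OE against 22.5 TPM with HMGA2-OE (4.09 ± 0.46), and its partner Itgb3 had 32.5 and 52.1 TPM against 4.10 TPM (2.90 ± 0.32). Esam, a junction protein of endothelium and stem cells, had 31.4 and 51.4 TPM with RUNX1mut/HMGA2-OE against 1.68 TPM with HMGA2-OE (3.82 ± 0.34). Itga2b, Itgb3 and Selp (2.50 ± 0.53) are also platelet genes, and the megakaryocyte marker list summed above, which holds Itga2b and Itgb3, moved with them; its part was not tested. Actn1, which ties integrins to actin, was at -1.66 ± 0.17, and Fgr at -1.54 ± 0.25. In Ly6G+ cells all 14 tested kinases and adaptors had negative RUNX1 terms (median -0.28), but without scaling 13 of 14 were positive, at a median of 0.38 against 0.58 for all genes. Among the other lists Vcl, which encodes vinculin, was at -1.08 ± 0.10, Itgb7 at -1.86 ± 0.44 and Gcnt1, a branching enzyme for selectin ligands, at -0.80 ± 0.12. On the higher side, Itga2b was at 2.76 ± 0.55 and Vcam1 at 0.77 ± 0.14 for the same term. For the HMGA2-OE term the widest value was that of St3gal6, a sialyltransferase, at -3.86 ± 0.41 (limma adjusted p = 0.467). It had 43.7 and 18.3 TPM in RUNX1mut/HMGA2-OE and HMGA2-OE Ly6G+ cells, against 268 and 567 TPM in RUNX1mut and Control.

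Likeness of pattern was measured as the root mean square difference of centred log2 scaled values over the 7 libraries, among 5863 candidate genes (5864 for Itgax and Icam1), and is a description only. The closest gene was Trib1 for Itgb2 (0.079), Adpgk for Itgam (0.153), Tbc1d10c for Itgal (0.163), Selenok for Itgax (0.088), Atpaf1 for Itgb1 (0.087) and Pnpt1 for Itga4 (0.133). It was Pik3r6 for Selplg (0.137), Gpsm3 for Cd44 (0.084) and H2-DMb1, a gene of MHC class II antigen loading, for Icam1 (0.224). Among the members themselves the closest pairs were Itgb2 with Selplg (0.294), Itgal with Cd44 (0.325) and Itga4 with Itgb1 (0.433). Itgam was closest to its own partner Itgb2 (0.494), farther than Itgb2 was from Selplg, and Icam1 was 0.576 from its closest member, Itgb1.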

How the data were processed

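The deposited table was made by the authors and holds TPM, as read from the values, since its name speaks of counts but its numbers are not whole and its columns sum to nearly 1 total. Per the submitters' processing notes, bcl2fastq, CASAVA 1.8 and kallisto were used with build mm10; these give neither a kallisto version nor an annotation. TPM are not counts, so no count test was run. GENCODE M21 named 27475 of the 28987 genes, and 1512 had no match. Each fit kept genes that reached 1 TPM in 2 or more of its libraries, and used scaling factors from a trimmed mean of log ratios without weights (trims of 0.3 for ratios and 0.05 for levels). limma 3.58.1 in R 4.3.3 was fitted to log2(scaled TPM + 1) with a variance trend, two-sided, with Benjamini-Hochberg adjustment at 0.05 over all genes of the fit. A log2 difference on this scale understates changes of low genes. The ± values are standard errors. TPM carries no depth, so counting error is unknown. Only RUNX1mut/HMGA2-OE HSC/P had replicates (2), which supply the spread of the HSC/P tests, and the additive Ly6G+ fit takes its spread from departure from additivity. The additive cell type fit to 5 libraries, with 2 residual degrees of freedom, takes its spread from both. The labels speak of individual mice but not of which library came from which, so p-values measure these spreads between libraries. The text gives every member and, from each pathway list, some of the largest differences. It does not give those of both directions in every comparison. Other choices are said to have been made after values were seen. The members and lists were chosen with earlier results of these data known. The values of 1 gene of the pathway lists are not reported here, though it stays in every fit and count. The procedure was tested on simulated data. Python 3.11.15, pandas 2.3.3 and matplotlib 3.10.9 made the tables and figures.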

Additional observations from a re-analysis of the deposited data

Results flagged for a closer look

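The RUNX1 contrast differed in sign between settings for 3 members, though for Itgal the negative contrast lay close to 0. For Itgax, both RUNX1mut/HMGA2-OE HSC/P replicates lay above HMGA2-OE HSC/P, by 0.39 and 0.09 on the log2 scale, while RUNX1mut/HMGA2-OE Ly6G+ cells lay below HMGA2-OE Ly6G+ cells, at -0.51. The difference of the contrasts was 0.75 ± 0.36 (limma adjusted p = 0.392). For Itga4, the HSC/P replicates lay below HMGA2-OE HSC/P, at -0.25 and -0.67, while in Ly6G+ cells the contrast was 0.85. The difference was -1.31 ± 0.37 (limma adjusted p = 0.257). Itgal in Ly6G+ cells had a RUNX1 contrast of 0.14 with HMGA2-OE and -0.01 without it, a difference of 0.15 that was not tested, since each of these genotypes had 1 library.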

How the results depend on the processing

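No paired analysis was possible because only RUNX1mut/HMGA2-OE HSC/P had numbered replicates. Without scaling, limma called 1 gene for RUNX1 in HSC/P, 133 for RUNX1 and 61 for HMGA2-OE in Ly6G+ cells and 88 for RUNX1 over both cell types, in place of 0. With TPM less S100a8 and S100a9 it called 1 gene in HSC/P. The HMGA2-OE term gave 58 calls with 7 libraries and 47 with 6 (less Ly6G+ RUNX1mut/HMGA2-OE). The interaction gave 3250 calls with no filter and 1 with a filter of 5 TPM. Leaving out a replicate gave 6401 to 6692 cell type calls, in place of 8212, and 0 for RUNX1 over both cell types. The cause was not tested for any of these.

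No called member changed sign in any setting. Uncalled signs turned as follows. Without scaling, for RUNX1 in HSC/P, Selplg was 0.057 and Cd44 0.0074. For RUNX1 in Ly6G+ cells, Itgam was 0.37, Itgax 0.29, Itgb2 0.39, Selplg 0.36 and Cd44 0.61. Over both cell types, Itgax was 0.43, Itgb2 0.19, Selplg 0.34 and Cd44 0.46, and for the interaction Itgal was -0.53, Itgax -0.072, Selplg -0.67 and Cd44 -1.05. Upper-quartile scaling put the Cd44 interaction at -0.0077, and TPM less S100a8 and S100a9 put Itgax over both cell types at 0.047. For the HMGA2-OE term, Itgb2 was -0.031 with no filter, -0.0013 with the 5 TPM filter, -0.054 less S100a8 and S100a9 and -0.019 with 7 libraries. With 6 libraries, that term was -0.38 for Itgam, -0.032 for Itgb2, -0.059 for Itga4 and 0.051 for Icam1, RUNX1 in Ly6G+ cells and over both cell types was 0.081 for Itgax, and the cell type difference of Icam1 was -0.31. Leaving out a replicate put Selplg for RUNX1 in HSC/P between -0.37 and 0.20, the cell type difference of Icam1 between -0.099 and 0.039, and the interaction of Itgb1 between -0.28 and 0.024 and of Cd44 between -0.0039 and 0.031. In HSC/P it put Itgam between -1.99 and -1.64 and Icam1 between 1.13 and 1.39. With the 5 TPM filter Itgax had no value in any fit and Icam1 none in Ly6G+ cells, and without a replicate the HSC/P and interaction fits gave values with no test. With 1 residual degree of freedom in 3 of the fits, intervals lean on variances shared across genes.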
